A study of Saccharomyces cerevisiae with 6 samples.

Results

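The most abundant insert of a yeast nucleosome library came from the LPX1 gene (YOR084W), which encodes a peroxisomal lipase, and it was accompanied by a family of fragments that share 1 of its ends and stop short of the other. The family was taken as every listed fragment on chromosome XV that lay within the insert, the 30 bases before it and the 63 bases after it, with at least 10 reads, summed over both sequencing runs, in each of 2 gel sections. This gave 129 fragments, the insert and 128 others, of 9277 fragments in the genome that passed the same minimum in both sections. The read numbers in the sections therefore chose the members, and their A/B values below are a description.

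In a nucleosome, DNA wraps around a core of histones in left-handed turns and thereby restrains a negative linking number difference (∆Lk). Micrococcal nuclease (MNase) cuts the DNA between nucleosomes and then nibbles inward from the ends, so that mono-nucleosome DNA is recovered as fragments of variable length. When each fragment is placed in a small circular plasmid, the supercoils that its nucleosome restrained in the cell are kept in the purified circle, and circles that differ in Lk migrate differently in a gel.

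The library of MNase fragments of Saccharomyces cerevisiae, cloned into a circular minichromosome and grown as a pool in yeast cells, was run in such a gel, and the gel was cut at the mean Lk of the pool. Section A (Topo-seq-A) held the upper part, enriched in circles of less negative ∆Lk. Section B (Topo-seq-B) held the lower part, enriched in circles of more negative ∆Lk. The study reports that circles with short inserts also ran faster and were enriched in section B. It adds that inserts of unlike length put the ladders of Lk bands out of step, which changes how a cut divides them. Values at unlike lengths are therefore not read as ∆Lk alone. The third sample was the library without the gel selection (NucLib). Each of the 3 samples was sequenced in 2 runs, so the spread between runs is technical and covers no second gel or second culture, and p-values measure that spread alone. The deposited lists held 3772256 reads for section A, 3345826 for section B and 2599858 for NucLib, and each of the 6 lists ended after 65536 fragments, at counts of 1 or 2 reads. A fragment missing from a list was counted as 0.

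The insert lies at chrXV:480630-480787 of the R64 genome, inside the coding sequence of LPX1, which lies on the + strand as 1 uninterrupted segment at chrXV:480587-481750. It covers bases 44 to 201 of that coding sequence, is 158 bp long with 60.1% G+C, and occurs once in the genome. The insert and the fragments with the most section B reads of each kind are printed 5′ to 3′ on the + strand, because their ends are the positions on which the results turn. In the insert the capitals mark the stretch that was also found as a fragment of its own, and in the 4 trimmed fragments they mark the 10 bases at the end that differs from the insert.
Insert, chrXV:480630-480787: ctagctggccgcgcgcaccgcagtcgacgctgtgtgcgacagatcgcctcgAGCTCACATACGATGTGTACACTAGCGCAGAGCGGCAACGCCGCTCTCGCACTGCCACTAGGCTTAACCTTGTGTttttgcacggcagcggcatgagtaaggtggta
Start shared, 126 bp, chrXV:480630-480755: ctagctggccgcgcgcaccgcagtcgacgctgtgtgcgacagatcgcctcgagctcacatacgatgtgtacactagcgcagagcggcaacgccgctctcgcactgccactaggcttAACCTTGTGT
Start shared, 146 bp, chrXV:480630-480775: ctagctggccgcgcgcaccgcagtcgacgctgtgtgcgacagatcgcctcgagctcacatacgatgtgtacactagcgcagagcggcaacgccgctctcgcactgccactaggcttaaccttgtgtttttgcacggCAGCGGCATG
End shared, 107 bp, chrXV:480681-480787: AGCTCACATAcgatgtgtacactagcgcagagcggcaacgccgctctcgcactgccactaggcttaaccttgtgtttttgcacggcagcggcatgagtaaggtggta
End shared, 86 bp, chrXV:480702-480787: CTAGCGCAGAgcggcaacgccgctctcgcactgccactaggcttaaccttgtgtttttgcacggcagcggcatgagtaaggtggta

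The insert itself was on the section A side. It had 482182 and 395672 reads in runs 1 and 2 of section A, 164520 and 210333 reads in those of section B, and 84843 and 179560 reads in those of NucLib. This made it 23.3% of all listed reads in section A (95% Wilson interval 23.2 to 23.3), 11.2% in section B (11.2 to 11.2) and 10.2% in NucLib (10.1 to 10.2). Intervals here cover counting error only, since reads amplified by PCR are not independent molecules. The A/B value, which is the log2 of the fragment's share of section A reads over its share of section B reads, was 1.05 for the insert, with 1.07 in run 1 and 1.05 in run 2.

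Of the 128 other members, 53 shared the first base of the insert and 73 shared its last base, whereas 2 shared neither. Among those with the shared start, 51 were shorter than the insert and covered every length between 107 and 157 bp, with the other two reaching 159 and 160 bp. Among those with the shared end, 72 were shorter and lay between 83 and 157 bp, with 1 longer fragment of 159 bp. Fragments that lacked bases on either side were therefore present, and among the members those with the shared end reached shorter lengths. The read minimum limits how short a member can be. Fragments are called trimmed here only because they lack bases at 1 end, and how they were shortened was not tested. Median counts of the 128 fragments were 64.5 reads in section A, 317.5 in section B and 55.5 in NucLib.

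**Figure D1:**
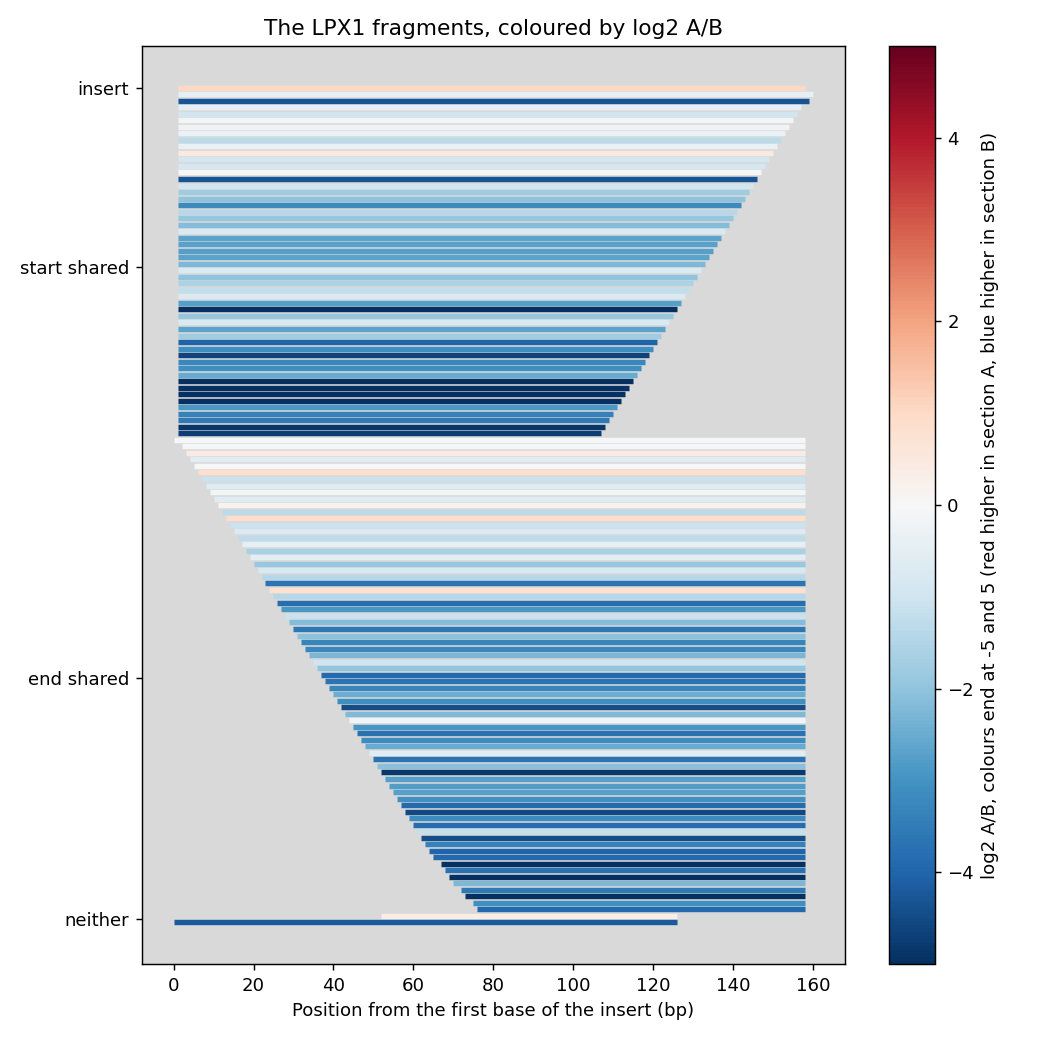
The 129 LPX1 fragments drawn to scale against the first base of the insert (x axis, bp), with the insert on top, then the fragments that share its start, its end and neither, and coloured by log2 A/B. The insert, at 1.05, is pale red, while 119 of the 128 others are below 0 and most of the shortest are dark blue.

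Most of the trimmed fragments were on the opposite side from their insert. The median A/B of the 128 fragments was -2.26, with -2.61 in run 1 and -2.17 in run 2, and 119 of them were below 0 and 9 above. The 9148 other fragments of the genome had a median of 0.09. By shared end, the median was -2.17 for the 53 fragments with the start of the insert and -2.49 for the 73 with its end. In a fit across all 9277 fragments (edgeR quasi-likelihood test, Benjamini-Hochberg adjusted p under 0.05), 6 of the 129 members were higher in section A, where 24.3% of all fragments were called in that direction, and 109 were higher in section B, where 21.3% were. These counts rest on the reads that chose the members, and nothing further is read from them. With DESeq2 in place of edgeR 1 member was higher in section A, where 9.2% of all fragments were. With TMM normalization 4 members were, where 20.1% of all fragments were. The calls toward section B ran between 101 (DESeq2) and 125 (library sizes set to the insert) under the settings that kept the same members. Of all fragments, 13.7% and 63.5% were called in that direction under these 2 settings.

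As shares of the reads of all members, the 128 fragments made up 2.30% in section A (2.27 to 2.33), 13.4% in section B (13.3 to 13.5) and 4.53% in NucLib (4.45 to 4.61). The runs gave 2.06% and 2.60% in section A, 13.2% and 13.5% in section B, and 4.13% and 4.71% in NucLib. The NucLib share thus lay between those of the sections in every run.

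The unselected library played no part in choosing the members, apart from marking the most abundant insert, and each section was set against it. Relative to NucLib, the share of the insert was higher by 1.19 on the log2 scale in section A and by 0.14 in section B. A share above NucLib in both sections cannot arise where 2 parts together make up the whole NucLib pool. NucLib is therefore not read as the sum of the 2 sections, and values against it are not read as a partition by the gel. The cause was not tested. The 128 fragments had a median of -0.11 in section A and of 1.95 in section B against NucLib. In section A, 126 of the 128 were below the value of the insert, and in section B 125 were above it. Because a member needed 10 reads in each section, fragments that were scarce in either are not among these counts. The fragment with the lowest NucLib count, 111 bp with the shared start, rests there on 1 read.

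The distance from the insert's own length divided the family. The 10 fragments that were 1 to 5 bases shorter than the insert, 5 from each side, were the most abundant trimmed forms in section A and in NucLib, apart from the 126-bp fragment in NucLib. They had between 636 and 1369 reads in section A, between 595 and 1263 in section B and between 408 and 537 in NucLib, and their median A/B was -0.19. The 115 fragments that were at least 6 bases shorter were at medians of 61 reads in section A, 304 in section B and 48 in NucLib, with a median A/B of -2.67. The ranges of A/B overlapped, at -0.96 to 0.84 for the first and -7.03 to 0.90 for the second.

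Within the near-complete forms, A/B lay on both sides of 0, and its sign changed between runs or settings for several fragments. The 156-bp fragment with the shared end had 777 and 549 reads in section A and 370 and 515 in section B, so that its A/B was 0.58 in run 1 and 0.23 in run 2. The 153-bp fragment with the shared end had 439 and 759 reads in section A against 206 and 389 in section B, with an A/B of 0.84. The 153-bp fragment with the shared start, of the same length but trimmed on the other side, had 504 and 545 reads in section A against 432 and 744 in section B, with an A/B of -0.34. The 5 fragments with the shared start had a median of -0.34 and the 5 with the shared end one of 0.02. The sign changed with the scaling or with a run left out for those of 154, 155 and 157 bp with the shared end and for that of 155 bp with the shared start, so no contrast between sides is drawn. The one whose runs lay furthest apart was the 155-bp fragment with the shared end, which had 374 and 554 reads in section A against 188 and 1033 in section B. Its A/B was 0.51 in run 1 and -0.76 in run 2, and no direction can be given for it.

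The 3 fragments longer than the insert had unlike values. The 159-bp fragment with 1 extra base at the end had 11 and 7 reads in section A, 160 and 155 reads in section B and 21 and 42 in NucLib, with an A/B of -4.30. The 160-bp fragment with 2 extra bases at the same end had 119 and 136 reads in section A, 137 and 176 reads in section B and 55 and 159 in NucLib, with an A/B of -0.47. The 159-bp fragment with 1 extra base at the start had 199 and 68 reads in section A, 128 and 119 reads in section B and 35 and 33 in NucLib, with an A/B of 0.15 in run 1 and -0.67 in run 2. The first was far below the insert in both runs, and the last had no settled direction.

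**Figure D2:**
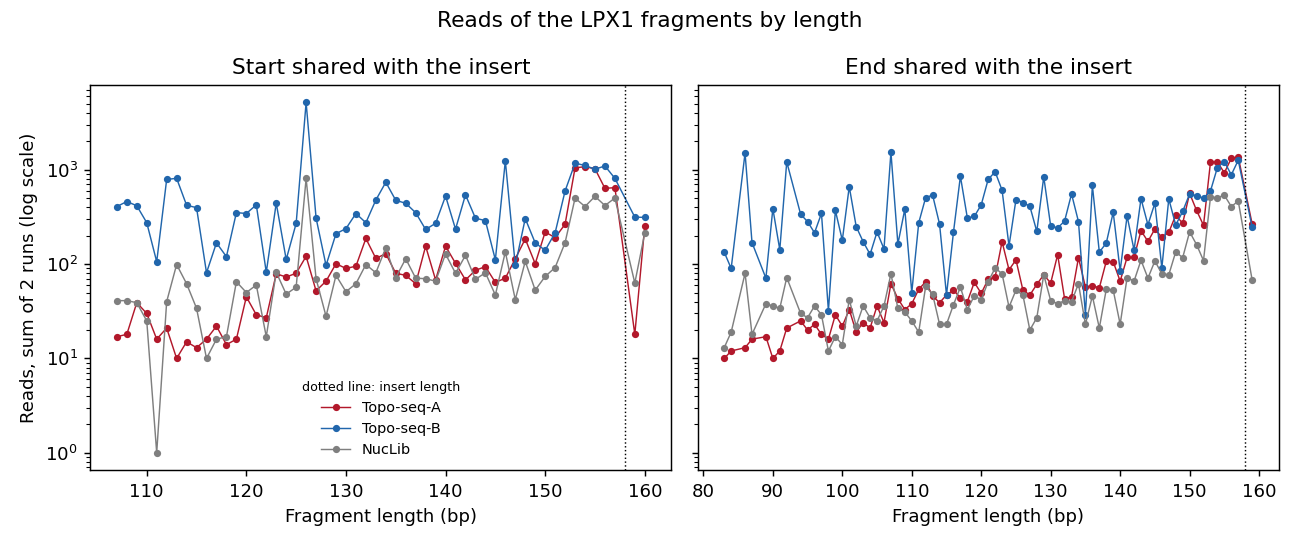
Reads of each LPX1 fragment (y axis, log scale, sum of both runs) against its length (x axis, bp) in Topo-seq-A, Topo-seq-B and NucLib, for fragments that share the start (left) or the end (right) of the insert, whose length of 158 bp is dotted. Section A reads climb with length, whereas section B reads stay at about the same level from the shortest fragments to 152 bp, with single lengths that stand far above their neighbours.

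The change of A/B with length came mainly with section A. Among the 51 shorter fragments with the shared start, log2 reads correlated with length at r = 0.86 in section A and at r = 0.19 in section B, and among the 72 with the shared end at r = 0.91 in section A and at r = 0.26 in section B. The points of each series share a library, an end and overlapping bases, so these are descriptions. A/B correlated with length at r = 0.74 in the first series and at r = 0.75 in the second. By length class, the fragments with the shared start had a median A/B of -4.76 at 100 to 109 bp (n = 3), -4.00 at 110 to 119 bp (n = 10), -2.29 at 120 to 129 bp (n = 10), -2.20 at 130 to 139 bp (n = 10), -1.59 at 140 to 149 bp (n = 10) and -0.34 at 150 to 159 bp (n = 9). Those with the shared end had -3.57 at 80 to 89 bp (n = 5), -3.93 at 90 to 99 bp (n = 9), -3.11 at 100 to 109 bp (n = 10), -2.73 at 110 to 119 bp (n = 10), -3.28 at 120 to 129 bp (n = 10), -1.68 at 130 to 139 bp (n = 10), -0.67 at 140 to 149 bp (n = 10) and -0.06 at 150 to 159 bp (n = 9). The values did not climb at every step, and the 80 to 89 bp class was above the next.

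**Figure D3:**
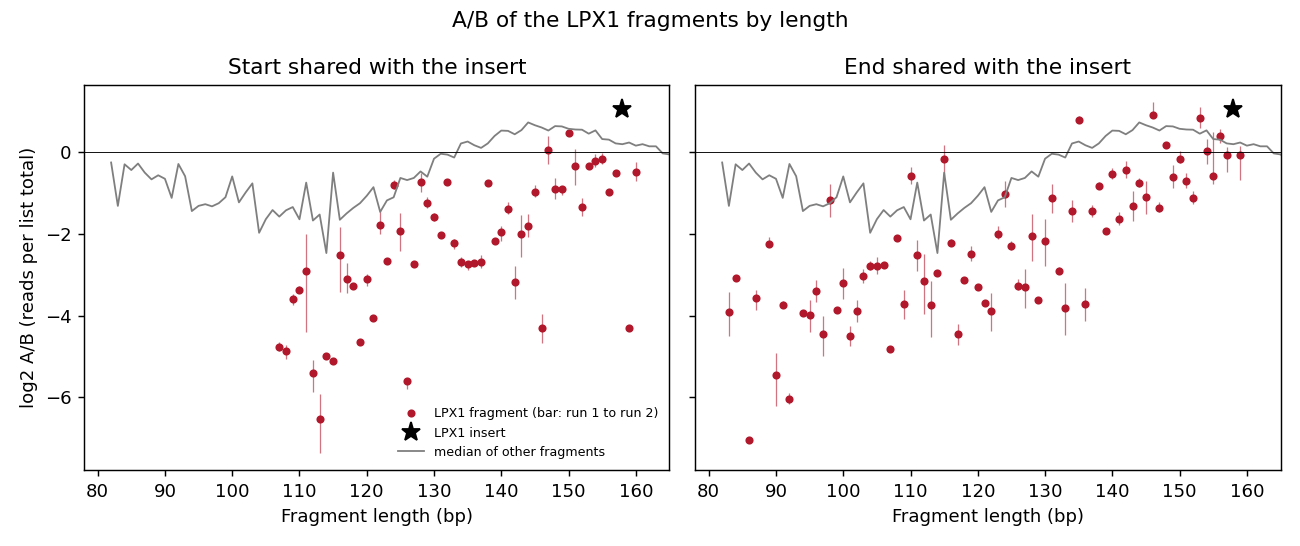
log2 A/B (y axis) against fragment length (x axis, bp) for LPX1 fragments with the shared start (left) or the shared end (right). Bars join run 1 and run 2, the star is the insert at 1.05, and the grey line is the median of all other fragments of that length where there were at least 5. Most LPX1 points lie below the line, and 118 of the 127 that can be compared do.

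Other fragments of the genome also had lower A/B at short lengths, so each LPX1 fragment was set against the other fragments of exactly its length. The insert was 0.85 above their median. The 127 other members with at least 5 such fragments had a median difference of -1.85, and 118 of them were lower. Among shorter fragments, the median difference was -1.91 with the shared start (50 of 51 lower) and -1.76 with the shared end (64 of 72 lower). Shorter fragments of the CAR2 gene, described below, had -0.46 with the shared start (42 of 63 lower) and -1.64 with the shared end (29 of 34 lower). The fragments they were set against include those of CAR2 itself. A lower A/B at equal length was thus not particular to LPX1. At 140 to 149 bp the 10 LPX1 fragments with the shared start had a median A/B of -1.59, below the 5th percentile of -0.80 of the 1821 other fragments, whose median was 0.59. The 10 with the shared end had a median of -0.67, above that percentile. Both series were also above it at 150 to 159 bp, at -0.34 and -0.06, where the 5th percentile of 2334 other fragments was -0.77. In shorter classes, the shared-start median was below the 5th percentile at 100 to 109, 110 to 119 and 130 to 139 bp. It was above it at 120 to 129 bp. The shared-end median was below it at 80 to 89, 90 to 99, 120 to 129 and 130 to 139 bp. At 100 to 109 and 110 to 119 bp it was above. The difference from other fragments of the same length was also expressed in Lk units. For this, the share of a fragment in section A was turned into a quantile of a normal distribution. Its SD was the 0.85 that the study uses for Lk distributions of the minichromosomes. On that scale the insert was 0.35 above the mean of other fragments of its length, and the 127 fragments had a median of -0.59, with a range of -1.78 to 0.38.

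Fragments trimmed on opposite sides were also set against each other at equal length. At 51 lengths a fragment of each side was present, and the one with the shared start had the lower A/B at 30 lengths and the higher at 21, with a median difference of -0.31, for which no test was run. Over these lengths the sides correlated at r = 0.47 (rho = 0.47). Some single lengths differed widely. At 146 bp, the fragment with the shared start had 32 and 39 reads in section A against 578 and 667 in section B, with an A/B of -4.31. The 146-bp fragment with the shared end had 85 and 107 reads in section A against 26 and 65 in section B, with an A/B of 0.90. At 135 bp the fragment with the shared start had an A/B of -2.74, whereas that with the shared end, with 31 and 26 reads in section A against 12 and 17 in section B, had one of 0.80. These pairs were chosen after their values were seen, and in each the order was the same in both runs.

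Neighbouring ends were uneven at the level of single bases. Between fragments that differed by 1 bp, A/B changed by a median of 0.94 among those with the shared start and 1.08 among those with the shared end, and by up to 4.37 and 4.51. Both medians exceeded the median difference of 0.31 between runs, and A/B of the 128 fragments correlated between runs at r = 0.95. After a running mean over 11 bp was taken off, the remaining A/B values of the series correlated with each other at r = 0.06 over 51 lengths. Against the medians of other fragments of the same length they correlated at r = -0.03 for the shared start and r = 0.00 for the shared end. All 3 of these correlations were near 0. Against fragments of the CAR2 gene, described below, the shared start was at r = -0.05 with the CAR2 start series and -0.28 with its end series. The shared end was at r = -0.27 with the CAR2 start series and -0.04 with its end series.

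A few ends had section B counts far above those of their neighbours. The 126-bp fragment with the shared start, whose last 10 bases are capitalised above, had 77 and 44 reads in section A, 2508 and 2673 reads in section B and 289 and 521 in NucLib, with an A/B of -5.59. Set against the median of the 5 neighbours on each side in its series, its count was 1.59 times as high in section A, 20.4 times in section B and 13.8 times in NucLib. With a limit of 3 times the neighbours, set after the counts were seen, 6 of 123 shorter fragments stood out in section B, 2 with the shared start and 4 with the shared end. Since these were picked by section B, their ratios there are high by choice. Across the 6, the median was 1.37 times the neighbours in section A, 6.69 times in section B and 2.30 times in NucLib. The same limit was passed by 1 fragment in section A, of 153 bp with the shared start, at 3.96 times its neighbours there against 1.97 times in section B. It was passed by 2 in NucLib, the 126-bp fragment and that of 113 bp with the shared start, which was at 3.36 times its neighbours in NucLib and 2.42 times in section B.

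The others picked by section B were the 146-bp fragment with the shared start and, with the shared end, those of 86, 92, 101 and 107 bp. The 107-bp fragment had 33 and 29 reads in section A, 679 and 859 reads in section B and 20 and 59 in NucLib, with an A/B of -4.81. The 86-bp fragment had 7 and 6 reads in section A, 657 and 852 reads in section B and 27 and 53 in NucLib, and its A/B of -7.03 was the lowest of all members.

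A pair of these ends also met in 1 fragment. The 75-bp fragment that starts where the 107-bp fragment starts and stops where the 126-bp fragment stops, capitalised within the insert above, had 88 and 119 reads in section A, 53 and 89 reads in section B and 25 and 66 in NucLib. Its A/B was 0.37, with 0.25 in run 1 and 0.55 in run 2, while the fragments that carried 1 of these ends were at -4.81 and -5.59. It was the shortest member, and no other fragment of its length was numerous enough for a comparison at equal length. The second member without a shared end, 127 bp long, began 1 base before the insert and stopped at the same base as the 126-bp fragment. It had 12 and 4 reads in section A, 109 and 151 reads in section B and 3 and 13 in NucLib, with an A/B of -4.20.

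At the extremes of the series, the shortest fragment with the shared start, of 107 bp, had 9 and 8 reads in section A, 187 and 221 reads in section B and 12 and 29 in NucLib, with an A/B of -4.76. The shortest with the shared end, of 83 bp, had 4 and 6 reads in section A, 64 and 70 reads in section B and 1 and 12 in NucLib, with an A/B of -3.92. Among the 43 fragments that reached 100 reads in both sections, the lowest A/B values were -5.59 for the 126-bp and -2.69 for the 134-bp fragment with the shared start and -2.29 for the 125-bp fragment with the shared end. The highest were 0.84 and 0.41 for the 153-bp and 156-bp fragments with the shared end and 0.47 for the 150-bp fragment with the shared start, which had 91 and 128 reads in section A against 46 and 94 in section B. The best covered fragments thus also lay on both sides of 0, and those above it were the 75-bp fragment described above and 5 others of 148 to 156 bp.

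Base composition followed the side of trimming. The G+C content had a median of 61.4% in fragments with the shared start, with a range of 59.7 to 65.4%, and of 56.8% in those with the shared end, with a range of 54.8 to 60.6%. Fragments that kept the start therefore held more G+C. Their median A/B of -2.17 was above the -2.49 of those that kept the end, but the series cover different lengths, and at equal length the shared start was lower at 30 of 51 lengths. Among the 46 fragments with the shared start that lacked at least 6 bases, the last base kept was A in 10, C in 10, G in 13 and T in 13, and their median A/B was -2.01, -2.90, -2.66 and -1.78. Among the 67 such fragments with the shared end, the first base kept was A in 14, C in 22, G in 20 and T in 11, with medians of -3.10, -2.51, -2.53 and -2.77. The insert itself is 19.6% A, 30.4% C, 29.7% G and 20.3% T.

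The minimum of 10 reads cut the family at short lengths. Besides the insert, 1654 fragments of the window were listed in at least 1 file, of which 128 passed in both sections, 171 passed in section B alone, 5 in section A alone and 1350 in neither. The 171 had a median length of 62 bp and 28933 reads in section B, and 134 of them were at 0 in section A. Of the 171, 151 shared an end with the insert, with lengths of 19 to 106 bp. Just inside the limit, the 113-bp fragment with the shared start was counted 10 times in section A against 813 times in section B, and just outside it the 88-bp fragment with the shared end was counted 9 times in section A against 621 times in section B. The most abundant fragment left out was a 74-bp one with the shared end, with 0 and 0 reads in section A, 410 and 528 reads in section B and 74 in NucLib in all. With 10 reads asked of section B alone, the median A/B of 299 fragments was -6.28, where those at 0 in section A were ranked lowest.

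The fragments of the CAR2 gene, from the second most abundant insert of the library outside the ribosomal DNA, were the closest counterpart. CAR2 encodes an ornithine transaminase of arginine catabolism. Its insert of 146 bp had an A/B of 1.18, close to that of the LPX1 insert. The 128 LPX1 fragments had a median of -2.26 and the 103 CAR2 fragments had one of -1.37. At equal length, LPX1 fragments with the shared start were below the CAR2 fragments with the shared start at 37 of 38 lengths, with a median difference of -2.06, whereas LPX1 and CAR2 fragments with the shared end differed by a median of -0.31 and LPX1 was lower at 20 of 34 lengths. Across sides, LPX1 with the shared end minus CAR2 with the shared start had a median of -1.58 and was negative at 52 of 59 lengths, and LPX1 with the shared start minus CAR2 with the shared end had one of -0.79 and was negative at 22 of 33. The shared start minus the shared end had a median of -0.31 within LPX1 (51 lengths) and of 1.26 within CAR2 (34 lengths). The start and the end are those of the reference strand, and the members of both families were chosen by their section reads. The LPX1 insert is 158 bp and the CAR2 insert 146 bp, so at equal length an LPX1 fragment lacks more bases of its insert. The families were not compared by the number of bases removed. The CAR2 insert had 280457 reads in section A against 877854 for the LPX1 insert. CAR2 fragments of equally low A/B are therefore lost more easily to the minimum, which acts in the direction of the difference. Its size was not tested.

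**Figure D4:**
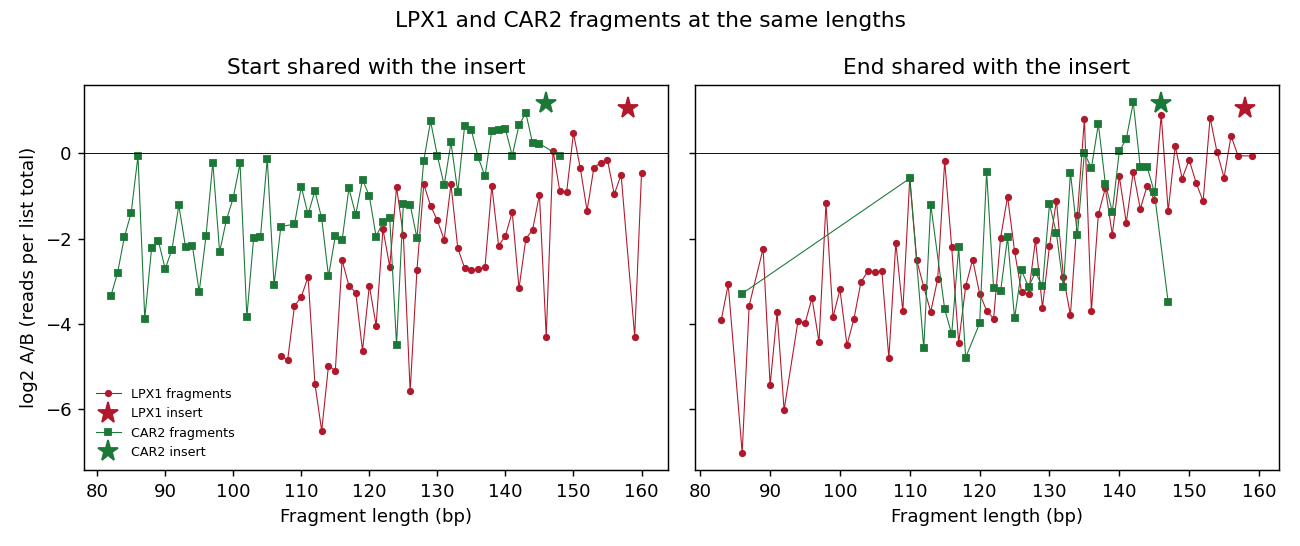
log2 A/B (y axis) against fragment length (x axis, bp) for LPX1 and CAR2 fragments that share the start (left) or the end (right) of their own insert, which is drawn as a star. The LPX1 points lie below the CAR2 points at 37 of 38 shared lengths on the left, and the families overlap on the right.

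Shorter fragments with a shared end were found around each of the 10 most abundant inserts, and their median A/B was below that of the insert in all 10. The difference was -3.35 for LPX1, -2.62 for CAR2 and -2.19 for ERC1, and came down to -0.03 for YLR278C, which had a single such fragment. LPX1 had 123 such fragments and the other 9 inserts had between 1 and 97. For each 1000 reads of the insert these fragments had 22.7 reads in section A, 151 in section B and 45.7 in NucLib for LPX1, against 31.3, 140 and 42.7 for CAR2. LPX1 had the most reads, so a fragment could pass the minimum there at a smaller share of its insert than elsewhere.

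The sequencing runs differed more for the LPX1 fragments than for others. With totals taken into account, the mean chi-square between the runs of a sample, which is near 1 where runs differ by counting error alone, was 9.17 in section A, 5.71 in section B and 3.93 in NucLib over the LPX1 fragments with at least 20 reads. Over the other fragments it was 1.26 in section A, 1.33 in section B and 1.25 in NucLib, where counts were lower (a median of 49 reads in section B, against 317.5 for LPX1) and the same relative difference gives a smaller chi-square. The mean was highest in the 10 fragments that lacked 1 to 5 bases, at 55.3 (section A), 51.6 (section B) and 21.8 (NucLib). Those that lacked at least 6 were at 3.99, 1.77 and 2.14. The 10 also had the higher counts, with a median of 1064.5 reads in section A against 61, which raises their chi-square. The median difference in A/B between runs was 0.34 for the 10 and 0.31 for the 115, which held the largest, 2.39. A/B had the same sign in both runs for 111 of the 115 fragments that lacked at least 6 bases and for 7 of the 10 that lacked fewer. The part of these run differences in the A/B values was not tested.

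**Figure D5:**
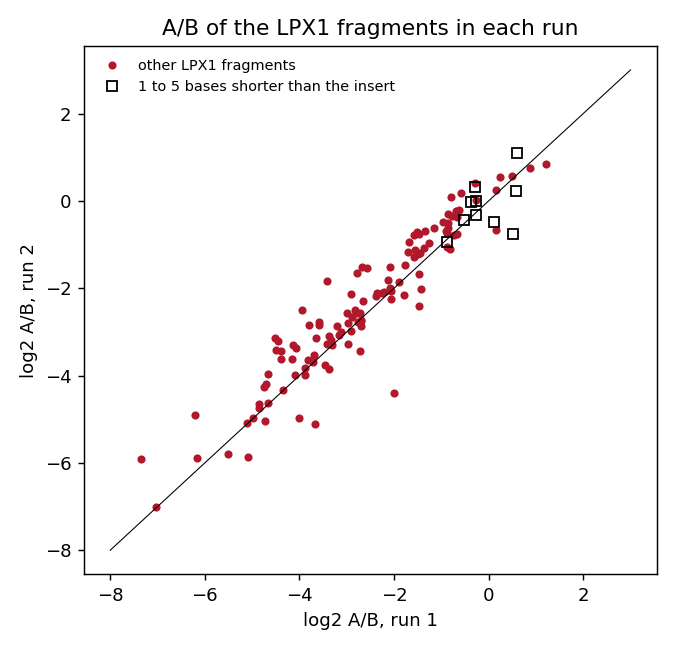
log2 A/B of each LPX1 fragment other than the insert in run 1 (x axis) and in run 2 (y axis), with the line of equality. Open squares are the 10 fragments that were 1 to 5 bases shorter than the insert. The points follow the line (r = 0.95, n = 128), and the pair of runs disagreed most in size for a fragment that differed by 2.39.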

How the data were processed

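The 6 lists hold, for each of 3 samples and 2 sequencing runs, fragment counts that the authors deposited as unnormalized whole numbers of reads per mapped fragment. Per the study's methods and the submitters' processing notes, paired-end reads were trimmed, aligned by Bowtie 1.1.2 to the R64 assembly and summarised with SAMtools and Picard. Start coordinates in the lists count from 0 and were raised by 1. Groups and run numbers came from the sample titles. A/B was computed from reads summed over runs, divided by the totals of the lists, and Lk units follow the study's conversion of A/B to scaled normal quantiles only, with a same-length mean that leaves out the LPX1 fragments and without its length adjustment. The 9277 fragments that reached 10 reads in both sections were fitted together with edgeR 4.0.16 (quasi-likelihood test, R 4.3.3) on list totals, and DESeq2 1.42.0 was an alternative; the fit was tested on simulated data.

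Runs of the same number shared a flow cell lane. Their deviations in sections A and B correlated at r = 0.06 over all fragments and at r = 0.20 over the 129 members, and a fit with the run number as a block is given among the alternatives. Fragments to be named were the insert, in each class the 5 with the most NucLib reads, the shortest and the longest, and among the 43 that reached 100 reads in both sections those with the 3 highest and 3 lowest A/B; others were named after their values were seen. The members and lists were chosen with earlier results of these data known.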

Additional observations from a re-analysis of the deposited data

How the results depend on the processing

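The median A/B of the 128 LPX1 fragments stayed below 0 under every alternative tried. It was -1.32 with at least 50 reads in each section (76 fragments), -1.66 from summed reads in place of the median, and -2.61 to -2.17 with either run alone. With 2 memberships chosen after seeing the data it was -3.23 for 178 fragments with at least 10 NucLib reads and -6.28 for 299 with at least 10 section B reads. The minimum in section A takes out the lowest A/B values by its construction. For the 10 fragments 1 to 5 bases short the median changed sign, to 0.025 with totals that leave out the insert. The difference from other fragments of the same length was -1.48 with at least 50 reads and -1.96 to -1.68 with either run alone, and -0.68 to -0.58 in Lk units. Members called toward section A numbered 6, but 0 with library sizes set to the insert and 1 with DESeq2. Of all fragments, 24.3%, 1.35% and 9.17% were called in that direction under these settings. Members called toward section B numbered 109, and 125 with library sizes set to the insert, where 21.3% and 63.5% of all fragments were. When 10 reads were asked of both sections together, 279 of 331 members were called toward section B, where 42.9% of all 26809 fragments were. Calls with a run left out are not counted here. Leaving out a run leaves 1 library in its section, which is then assumed to vary like the other section. With the run number as a replicate block, 7 members were called toward section A and 110 toward section B, against 25.2% and 21.8% of all fragments. Among the named fragments the block changed the call of the 75-bp one alone, which passed toward section A at an adjusted p of 0.0301 with edgeR, against 0.0881 without the block.

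Several near-complete fragments had no settled direction, and the cause was not tested. The 159-bp one with the shared end was at 0.12 with library sizes that leave out the insert and between -0.89 and 0.37 when a run was left out, that of 157 bp at 0.11 and between -0.65 and 0.28, that of 155 bp between -1.15 and 0.98, and that of 154 bp at -0.057 with TMM, at -0.024 with DESeq2 and between -0.36 and 0.39. The 155-bp one with the shared start was at 0.072 and between -0.35 and 0.058. The other fragments named by the rule kept their sign with TMM, totals without the insert, DESeq2, the block and each run left out. Fragments with 10 to 20 reads in section A rest on few counts, and 1 gel gave both sections.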
